A study of Mus musculus with 6 samples.

Results

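The genes described here are the mouse collagen genes, taken as every gene whose symbol has the form Col, a number, a and a number. There were 44 such genes in the annotation, 36 of them had at least 1 count in at least 1 of the 6 libraries, and 25 had enough counts to be tested, out of 23231 genes listed and 14378 tested. The series was poly(A) RNA-Seq of C2C12, a line of mouse myoblasts whose cells fuse to form myotubes in low serum, with 3 libraries in each of 2 groups. Cells of both groups had received lentivirus (multiplicity of infection, 100), had survived puromycin at 2 μg/ml and were taken on day 5 of differentiation in 2% horse serum. Both groups carried dCas9-KRAB, a catalytically dead Cas9 joined to a repressor domain, expressed from the human ubiquitin C promoter. The dCas9-KRAB-En5 cells also carried guide RNAs against En5, an enhancer of *Myog*, the gene of the differentiation factor myogenin, and the dCas9-KRAB cells were the controls. The labels do not say whether libraries of a group came from separate cultures, so the p-values measure only the spread between these libraries, which may be technical.

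Collagens are trimers of α-chains wound into a triple helix, and each chain has its own gene. Fibrillar collagens (types I, III and V among them) build the tensile fibers around muscle cells, type IV collagen builds the sheet of the basement membrane that wraps each myofiber, type VI forms beaded filaments between them, FACITs (fibril-associated collagens with interrupted triple helices) sit on fibril surfaces, and transmembrane collagens are anchored in the cell membrane. Chains are hydroxylated and folded in the endoplasmic reticulum, trimmed by procollagen proteinases after secretion and cross-linked by lysyl oxidases.

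The promoters of 4 genes on which the results turn are printed, since 2 of them belong to chains with lower levels in every dCas9-KRAB-En5 library (*Col1a2* and *Col6a2*) and 2 to a head-to-head pair of genes with higher levels in most of them (*Col4a5* and *Col4a6*). Each is the part of the 250 bases before the RefSeq start site that lies outside annotated exons, on GRCm38.p6, read 5′ to 3′ on the strand of the gene. The stretch shown is 123 bases for *Col1a2* and 216 for *Col4a5*, and stops 125 and 34 bases short of the start site. *Col6a2* also has a window of 24 bases for another RefSeq start site, which is not printed. Capitals mark a GC box (GGGCGG or its reverse complement CCGCCC). The windows are chr6:4505370-4505492 on the plus strand, chr10:76623631-76623880 on the minus strand, chrX:141475169-141475384 on the plus strand and chrX:141474077-141474326 on the minus strand.
Col1a2: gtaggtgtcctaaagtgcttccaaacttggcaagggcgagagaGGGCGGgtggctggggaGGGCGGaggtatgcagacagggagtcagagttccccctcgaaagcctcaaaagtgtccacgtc
Col6a2: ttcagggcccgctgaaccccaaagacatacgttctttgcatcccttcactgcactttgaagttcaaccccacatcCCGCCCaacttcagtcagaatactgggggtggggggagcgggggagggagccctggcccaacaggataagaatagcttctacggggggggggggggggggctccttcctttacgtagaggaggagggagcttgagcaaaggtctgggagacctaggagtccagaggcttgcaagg
Col4a5: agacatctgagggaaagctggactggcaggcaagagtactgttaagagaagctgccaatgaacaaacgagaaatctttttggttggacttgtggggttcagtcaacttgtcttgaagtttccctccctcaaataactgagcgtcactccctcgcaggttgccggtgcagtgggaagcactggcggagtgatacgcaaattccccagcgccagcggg
Col4a6: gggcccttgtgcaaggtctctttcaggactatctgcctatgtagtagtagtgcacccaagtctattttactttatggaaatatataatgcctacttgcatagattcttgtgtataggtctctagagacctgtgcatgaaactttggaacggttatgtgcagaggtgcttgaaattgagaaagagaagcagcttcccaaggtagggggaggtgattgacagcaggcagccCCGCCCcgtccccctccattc
Of the 44 genes, 35 matched a RefSeq promoter of 250 bases, and *Col1a1* was not among them. Windows cut short by exons, such as those printed for *Col1a2* and *Col4a5*, are not of that length. A GC box was present on either strand in 21 of the 35, or 60.0%, against 32.9% of all 27025 promoters of the same length. An E-box, CANNTG, the motif family that myogenic factors bind, was found in 51.4% of the collagen promoters and 66.0% of all promoters. The narrower form CAGCTG was in 17.1% and 12.8%, the CCAAT box in 34.3% and 34.5%, and TATAAA in 14.3% and 13.0%. These matches describe the letters in the windows and say nothing of binding.

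The 6 libraries held 31831093 to 73988425 counts, so that 3 counts corresponded to 0.0405 to 0.0942 CPM (counts scaled to depth). *Myog* had 1065, 1224 and 1118 TPM (a transcript level scaled for length and depth) in the dCas9-KRAB libraries and 0.379, 0 and 0 TPM in the dCas9-KRAB-En5 libraries. The targeted gene was therefore low in every library labelled En5. Replicate 3 of dCas9-KRAB-En5 stood apart, with 13991 genes listed against 17084 to 19395 in the other 5 libraries and 20.6% of counts in ribosomal protein genes against 9.12% to 16.7%. Muscle markers (6 genes) summed to 14860 to 16576 TPM in dCas9-KRAB and 6.19 to 14.6 TPM in dCas9-KRAB-En5 libraries. Macrophage markers, which a myoblast line is not known for, were present in all libraries, with 8 of 12 genes at 10 TPM or more in every library and sums of 3808 to 4550 TPM against 5293 to 8236 TPM. Of the macrophage genes, *Adgre1* and *Cd68* were higher and *Fcgr1*, *Mpeg1* and *Aif1* lower in every En5 library than in any control. The summed levels of both lists differed between the groups without overlap, and their part in the collagen results was not tested. In RNA from a whole culture, fewer cells of a type and less RNA per cell cannot be told apart.

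The amount of collagen transcripts varied more among the dCas9-KRAB libraries than among the dCas9-KRAB-En5 libraries. The summed collagen level was 75.8, 384 and 197 TPM in dCas9-KRAB replicates 1, 2 and 3, and 104, 110 and 67.0 TPM in dCas9-KRAB-En5 replicates 1, 2 and 3. The groups overlapped, because dCas9-KRAB replicate 1 lay below 2 of the En5 libraries. The means were 219 ± 155 TPM and 93.7 ± 23.3 TPM (SD, n = 3 each), a ratio of 2.34 that became 1.46 without dCas9-KRAB replicate 2. Collagen genes took 0.0396% to 0.168% of the counts of a dCas9-KRAB library and 0.0355% to 0.0402% of those of a dCas9-KRAB-En5 library.

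The order of the dCas9-KRAB libraries was shared by most members. Replicate 1 was the lowest and replicate 2 the highest in 20 of the 25 genes tested, a pattern held by 36.1% of all genes tested. The median ratio of the highest to the lowest dCas9-KRAB library was 4.52 over the 24 collagen genes detected in all 3, against 2.04 over all genes, whereas within dCas9-KRAB-En5 it was 2.41 over 23 collagen genes against 3.33. A fall or rise of a collagen gene therefore had to exceed a wide spread among the controls.

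**Figure D1:**
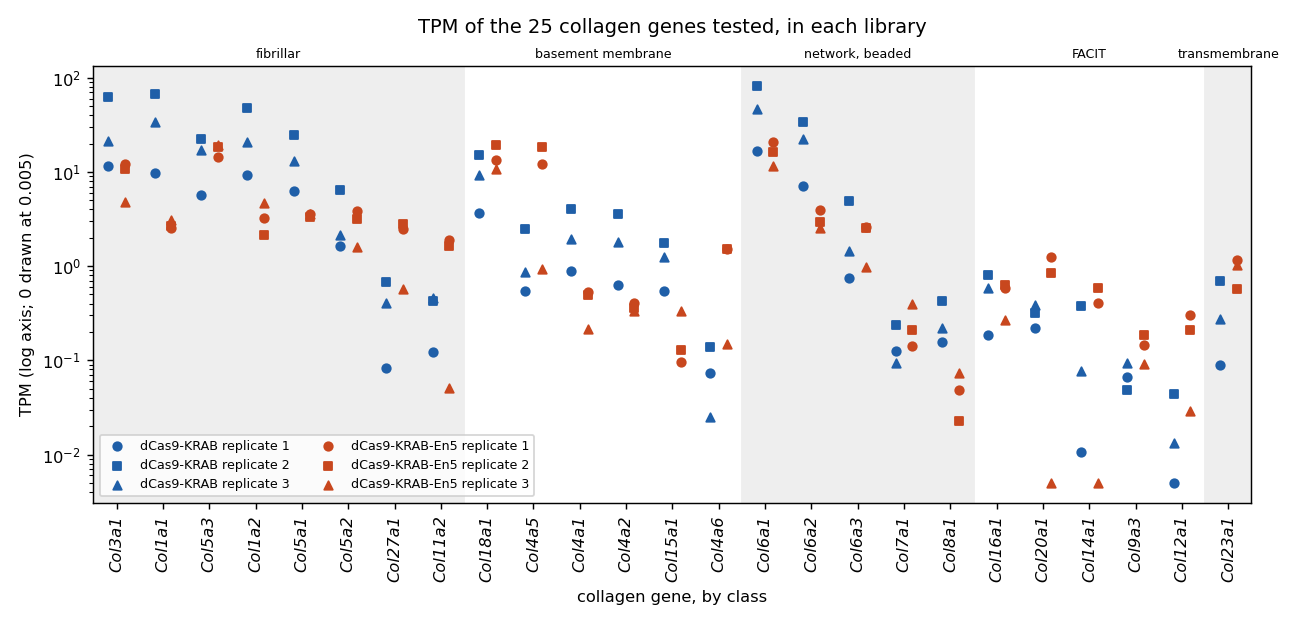
Level of each of the 25 collagen genes tested in each library, in TPM on a log axis, with genes grouped by class and values of 0 drawn at 0.005. Blue symbols are dCas9-KRAB and orange symbols dCas9-KRAB-En5 libraries. The orange symbols of *Col1a1*, *Col6a2* and *Col4a1* lie below all blue ones, those of *Col4a6* lie above, and the blue square (replicate 2) tops the blue triangle and circle in most genes.

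Of the 25 genes tested, *Col1a1* and *Col6a2* fell past both cutoffs, an adjusted p of at most 0.01 and at least a 2-fold change, in the edgeR quasi-likelihood fit, where p-values were adjusted over all genes by the Benjamini-Hochberg method. That is 8.0% of the collagen genes, against 4.67% of all genes tested that were called lower. No collagen gene was called higher (0 of 25, against 1.52% of all genes). At an unadjusted p under 0.05, 10 were lower and 4 higher. Here and below, counts at an unadjusted p come without the share of all genes, which was not computed, and cannot show an excess. The labels do not pair libraries across the groups, but libraries with the same replicate number deviated together in these counts. The block was chosen from those same counts, so its calls are no independent support. With the replicate number as a block edgeR called 4 collagen genes lower (*Col1a1*, *Col1a2*, *Col4a1* and *Col6a2*, with 6.79% of all genes) and 1 higher (*Col4a6*, with 3.94% of all genes). DESeq2 called 7 lower and 2 higher, against 8.66% and 5.88% of all genes. edgeR called the same numbers with no low-count filter (5.14% and 4.32%) and when an adjusted p of 0.05 was allowed (9.60% and 7.43%). Without dCas9-KRAB-En5 replicate 3 edgeR also called 7 lower and 2 higher, against 14.0% and 11.7%. Leaving out any other library brought the count to 0 in both directions, with 6 to 10 genes lower and 3 to 5 higher at an unadjusted p under 0.05, and brought the calls over all genes from 890 to between 222 and 610.

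The median log2 fold change (dCas9-KRAB-En5 over dCas9-KRAB) was -0.29 over the 25 genes and 0.08 over all genes tested. It was -0.04 with the block, 0.52 without dCas9-KRAB replicate 2, -0.73 without dCas9-KRAB replicate 1 and -1.09 over the 18 genes with at least 10 counts in every library. Counted by their levels alone, 8 genes had groups that did not overlap with En5 lower (19.7% of all genes tested did) and 1 with En5 higher (7.76%), and 16 overlapped. By same-numbered libraries, 8 genes were lower in all 3 pairs (25.8% of all genes) and 5 were higher in all 3 (20.9%). The median log2 ratio of En5 to dCas9-KRAB, taken on TPM + 0.1, was 1.19 for replicates 1, -0.32 for replicates 2 and -0.89 for replicates 3, so that the first pair leaned the other way.

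**Figure D2:**
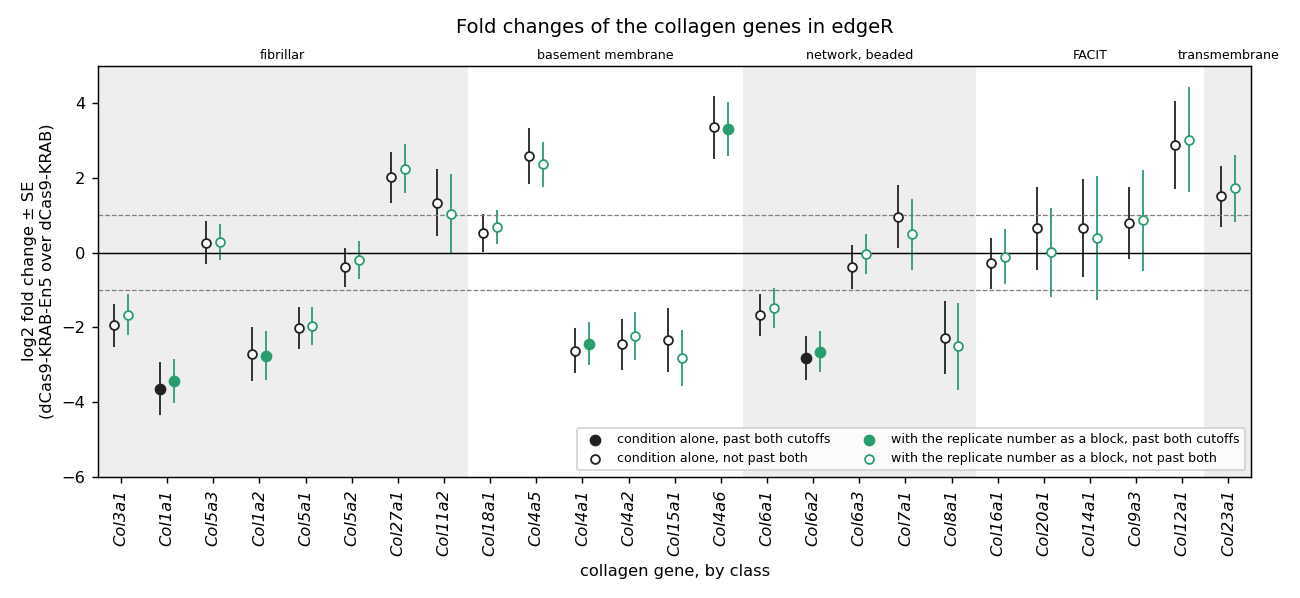
Log2 fold change with its standard error for each collagen gene tested, from edgeR with condition alone (black) and blocked by replicate number (green). Filled symbols passed both cutoffs and dashed lines mark a 2-fold change. *Col1a1* and *Col6a2* are filled in both fits, and *Col1a2*, *Col4a1* and *Col4a6* are filled in green and open in black.

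Among the fibrillar collagens, both chains of type I collagen and *Col5a1* were low in every dCas9-KRAB-En5 library, whereas *Col5a2* and *Col5a3* were not. Of 11 genes 10 were listed and 8 tested, with 1 called lower (2 with the block, 4 in DESeq2) and a median log2 fold change of -1.17. Over all genes tested, 4.67% were called lower, 6.79% with the block and 8.66% in DESeq2. Counts this small were not tested against those shares. *Col1a1* (ENSMUSG00000001506, chr11:94936224-94953042), the gene of the major chain of type I collagen, had 9.73, 68.0 and 33.6 TPM in dCas9-KRAB and 2.52, 2.70 and 3.08 TPM in dCas9-KRAB-En5 libraries. The groups did not overlap, and the En5 libraries were close to each other, with a mean of 2.77 ± 0.286 TPM against 37.1 ± 29.3 TPM (SD, n = 3). Its log2 fold change was -3.65 ± 0.71 (SE, n = 3, adjusted p = 0.0062 in edgeR). *Col1a2* (ENSMUSG00000029661, chr6:4504814-4541544), the partner chain, had 9.24, 47.2 and 21.0 TPM against 3.26, 2.16 and 4.67 TPM. Its groups did not overlap either, but its log2 fold change of -2.72 ± 0.72 did not pass both cutoffs (adjusted p = 0.0249 in edgeR). It passed with the block (adjusted p = 0.00728), in DESeq2 (0.00115) and without En5 replicate 3 (0.00144).

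*Col3a1* (ENSMUSG00000026043, chr1:45311538-45349706), whose chain forms type III collagen on its own, had 11.4, 62.2 and 21.3 TPM against 12.1, 10.8 and 4.75 TPM. The groups overlapped at dCas9-KRAB replicate 1, which was below 1 En5 library. Its log2 fold change of -1.94 ± 0.57 did not pass (adjusted p = 0.0375 in edgeR), and the same held for *Col5a1*, whose chain helps fibrils form, at -2.03 ± 0.57 (adjusted p = 0.0306). *Col5a1* had 6.21, 24.8 and 13.1 TPM against 3.60, 3.35 and 3.54 TPM. The En5 libraries were all below the lowest control, and nearly equal to each other. DESeq2 called both lower (adjusted p = 0.00532 for *Col3a1* and 0.00596 for *Col5a1*), and edgeR called *Col5a1* lower without En5 replicate 3 (0.0034).

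The other type V chains went with neither. *Col5a2* had 1.64, 6.44 and 2.15 TPM against 3.87, 3.15 and 1.60 TPM, and *Col5a3* had 5.62, 22.4 and 17.2 TPM against 14.3, 18.4 and 19.2 TPM. Both pairs of groups overlapped, with log2 fold changes of -0.39 ± 0.52 and 0.26 ± 0.58 (adjusted p = 0.634 and 0.783 in edgeR). *Col5a3* was the most abundant collagen transcript of dCas9-KRAB-En5 replicate 3, whereas *Col6a1* led every dCas9-KRAB library and dCas9-KRAB-En5 replicate 1. *Col27a1*, a fibrillar chain of cartilage, was named after its values were seen because it was higher in all 3 pairs, with 0.0821, 0.677 and 0.408 TPM against 2.48, 2.81 and 0.570 TPM. Its groups overlapped, and at 2.01 ± 0.68 its log2 fold change did not pass (adjusted p = 0.0633 in edgeR, and 0.0233 with the block). *Col11a2*, another cartilage chain, had 0.123, 0.428 and 0.461 TPM against 1.90, 1.65 and 0.0509 TPM. En5 replicates 1 and 2 were above every control and En5 replicate 3 below every control. Its log2 fold change was 1.34 ± 0.89 (adjusted p = 0.32 in edgeR). Of the rest, *Col24a1* had at most 15 counts, *Col2a1* had 10 counts in a single En5 library, and *Col11a1* was listed in none.

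Within the basement membrane class the chains parted by gene pair. *Col4a1* and *Col4a2*, which encode the chains of the ubiquitous type IV trimer, had lower levels in every dCas9-KRAB-En5 library than in any dCas9-KRAB library, and *Col4a5* and *Col4a6*, which encode chains of trimers with a narrower distribution, had higher levels in at least 2 of 3. The class held 8 genes, 7 listed and 6 tested, with 0 called in edgeR (3 lower and 2 higher at an unadjusted p under 0.05). Over all genes, edgeR called 4.67% lower and 1.52% higher. DESeq2 called 2 lower and 2 higher in the class, against 8.66% and 5.88% of all genes. With the block, 1 was lower and 1 higher, against 6.79% and 3.94%. *Col4a1* (ENSMUSG00000031502, chr8:11198423-11312826) had 0.884, 4.0 and 1.92 TPM against 0.531, 0.498 and 0.217 TPM. The groups did not overlap, and its log2 fold change was -2.63 ± 0.61 (adjusted p = 0.0136 in edgeR, 0.00847 with the block and 0.00014 in DESeq2). *Col4a2* (ENSMUSG00000031503, chr8:11312805-11449287) had 0.629, 3.56 and 1.80 TPM against 0.406, 0.356 and 0.330 TPM. Its groups did not overlap either, and its log2 fold change of -2.45 ± 0.68 did not pass (adjusted p = 0.0299, and 0.0203 with the block), though it did in DESeq2 (0.00216) and without En5 replicate 3 (0.00682).

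*Col4a5* (ENSMUSG00000031274, chrX:141475385-141689234) had 0.549, 2.47 and 0.864 TPM in dCas9-KRAB and 12.2, 18.5 and 0.937 TPM in dCas9-KRAB-En5 libraries. En5 replicates 1 and 2 were far above every control, whereas En5 replicate 3 lay inside the control range. Its log2 fold change was 2.59 ± 0.74 (adjusted p = 0.0345 in edgeR), and 2.99 without En5 replicate 3 (adjusted p = 0.00178). DESeq2 called it higher (0.00374). *Col4a6* (ENSMUSG00000031273, chrX:141165403-141474076), named after its values were seen, had 0.0740, 0.137 and 0.0252 TPM against 1.53, 1.5 and 0.148 TPM. It was the only collagen gene tested whose En5 libraries all exceeded the controls, with the third by a small margin (27 counts, against 9 to 41 in the deeper controls). Its log2 fold change of 3.35 ± 0.84 did not pass (adjusted p = 0.0203 in edgeR). It passed with the block (adjusted p = 0.00502), in DESeq2 (0.000298) and without En5 replicate 3 (0.00178).

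The genes of each pair are neighbors on opposite strands. The 5′ ends of *Col4a1* and *Col4a2* are 21 bp apart and the genes share 22 bases, and those of *Col4a5* and *Col4a6* are 1309 bp apart. The promoter windows of the *Col4a5* and *Col4a6* genes, printed above, both lie in the 1308 bp between them, and the letters of a GC box occur in that of *Col4a6* and not in the stretch shown for *Col4a5*. The strand setting of the authors' counting was not given in the sources used here, but exonic bases overlapping a gene on the other strand made up 0.29% of *Col4a1*, 0.98% of *Col4a2* and none of *Col4a5* or *Col4a6*.

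*Col15a1* and *Col18a1* encode collagens of the basement membrane zone whose ends release the fragments restin and endostatin. *Col18a1* had 3.69, 15.1 and 9.33 TPM against 13.4, 19.3 and 10.8 TPM, and was the most abundant collagen transcript of En5 replicate 2. It was higher in all 3 pairs but its groups overlapped (log2 fold change 0.53 ± 0.51, adjusted p = 0.499 in edgeR). *Col15a1*, named after its values were seen, had 0.546, 1.75 and 1.24 TPM against 0.0966, 0.130 and 0.337 TPM. Its groups did not overlap, and its log2 fold change of -2.35 ± 0.86 did not pass (adjusted p = 0.0785 in edgeR, and 0.0146 with the block). Without En5 replicate 3 it was -3.97 and passed (adjusted p = 0.0014). *Col4a3* had 3 counts in 1 En5 library and *Col4a4* was listed in none.

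Of the network, anchoring and beaded filament collagens, the type VI chains were the most abundant, and *Col6a2* fell while *Col6a1* and *Col6a3* did not pass the test. The class held 10 genes, 9 listed and 5 tested, with 1 called lower (against 4.67% of all genes) and a median log2 fold change of -1.68. *Col6a2* (ENSMUSG00000020241, chr10:76595762-76623630) had 7.13, 34.2 and 22.5 TPM in dCas9-KRAB and 3.93, 2.92 and 2.52 TPM in dCas9-KRAB-En5 libraries. The groups did not overlap, and the log2 fold change was -2.81 ± 0.58 (adjusted p = 0.00826 in edgeR). *Col6a1* (ENSMUSG00000001119, chr10:76708792-76726168), on the same strand and separated from it by 85161 bp, had 16.5, 82.6 and 46.8 TPM against 20.9, 16.1 and 11.5 TPM.

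The *Col6a1* groups overlapped at dCas9-KRAB replicate 1, and its log2 fold change was -1.68 ± 0.55 (adjusted p = 0.0578 in edgeR). *Col6a3* (ENSMUSG00000048126, chr1:90765923-90843971), the third chain of the same trimer, had 0.752, 4.94 and 1.45 TPM against 2.61, 2.56 and 0.975 TPM. These groups overlapped fully, at -0.39 ± 0.59 (adjusted p = 0.676). *Col8a1*, a chain of a network collagen of vessels and the cornea, had 0.155, 0.426 and 0.220 TPM against 0.0482, 0.0226 and 0.0725 TPM, named after its values were seen because its groups did not overlap. It rested on 3 to 13 counts in the En5 libraries, and its log2 fold change of -2.28 ± 0.97 did not pass (adjusted p = 0.124). *Col7a1*, of the anchoring fibrils of skin, had 0.0933 to 0.239 TPM against 0.142 to 0.395 TPM (0.96 ± 0.84, adjusted p = 0.46). *Col6a4*, *Col6a5*, *Col6a6* and *Col8a2* had at most 13 counts in a library, and *Col10a1*, a marker of hypertrophic cartilage, was listed in none.

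FACIT and transmembrane collagens were at 1.25 TPM or less in every library, and none was called in edgeR (0 of 6 tested, with 0 lower and 1 higher at an unadjusted p under 0.05, and 0 in DESeq2). Over all genes, edgeR called 4.67% lower and 1.52% higher, so 0 of 6 does not set these classes apart. The median log2 fold change of the 5 FACIT genes tested was 0.65. *Col16a1*, a minor collagen of several tissues, had 0.186, 0.807 and 0.582 TPM against 0.580, 0.629 and 0.265 TPM. *Col20a1* had 0.222, 0.317 and 0.391 TPM against 1.25, 0.837 and 0 TPM, and *Col14a1*, found on fibrils of skin and tendon, had 0.0105, 0.381 and 0.0764 TPM against 0.404, 0.589 and 0 TPM. Both were higher than every control in En5 replicates 1 and 2 and had 0 counts in En5 replicate 3. There 3 counts would correspond to 0.0942 CPM, which is not scaled for length and cannot be set beside these TPM values. Their log2 fold changes were 0.65 ± 1.11 and 0.65 ± 1.31 (adjusted p = 0.717 and 0.764 in edgeR). *Col12a1*, a FACIT of dense connective tissue and muscle, was named after its values were seen as the FACIT with an unadjusted p under 0.05, with counts of 0, 25 and 9 against 98, 54 and 10. Its log2 fold change of 2.88 ± 1.19 did not pass (adjusted p = 0.114).

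*Col9a3*, a chain of a cartilage FACIT, had at most 0.184 TPM, *Col22a1* had at most 4 counts, and *Col9a1*, *Col9a2* and *Col19a1* were listed in none. Of the 4 transmembrane collagens only *Col23a1* was tested, with 0.0899, 0.694 and 0.273 TPM against 1.15, 0.576 and 1.03 TPM. The groups overlapped at a single library (log2 fold change 1.5 ± 0.81, adjusted p = 0.219 in edgeR). *Col17a1*, of the hemidesmosome, had 0 counts in the dCas9-KRAB libraries and 5, 9 and 0 in the En5 libraries, *Col13a1*, found at the neuromuscular junction, had 4 counts in 1 dCas9-KRAB library, and *Col25a1* was listed in none. *Col26a1*, outside these classes, had 0, 6 and 5 counts against 0 in every En5 library, and *Col28a1* was listed in none.

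The make-up of the collagen transcripts differed between the groups more evenly than their amount. Basement membrane genes made up 8.41%, 7.04% and 7.71% of the summed collagen TPM in dCas9-KRAB and 27.1%, 36.5% and 19.0% in dCas9-KRAB-En5 libraries. A share can rise because other classes fall, and the summed level of this class overlapped, at 6.37, 27.1 and 15.2 TPM against 28.2, 40.3 and 12.7 TPM. In the En5 libraries *Col18a1* and *Col4a5* were its most abundant members, while *Col4a1*, *Col4a2* and *Col15a1* were lower than in any control. The network and beaded filament class made up 32.6%, 31.9% and 36.1% against 26.7%, 19.8% and 23.0%. In neither class did the groups overlap, whereas the fibrillar share did, at 58.2%, 60.5% and 55.5% against 42.5%, 40.8% and 55.9%. *Col1a1*, *Col1a2*, *Col3a1* and *Col6a1* together made up 62.0%, 67.7% and 62.3% against 37.4%, 28.8% and 35.7%. These shares are sums over genes chosen with results known and were not tested.

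**Figure D3:**
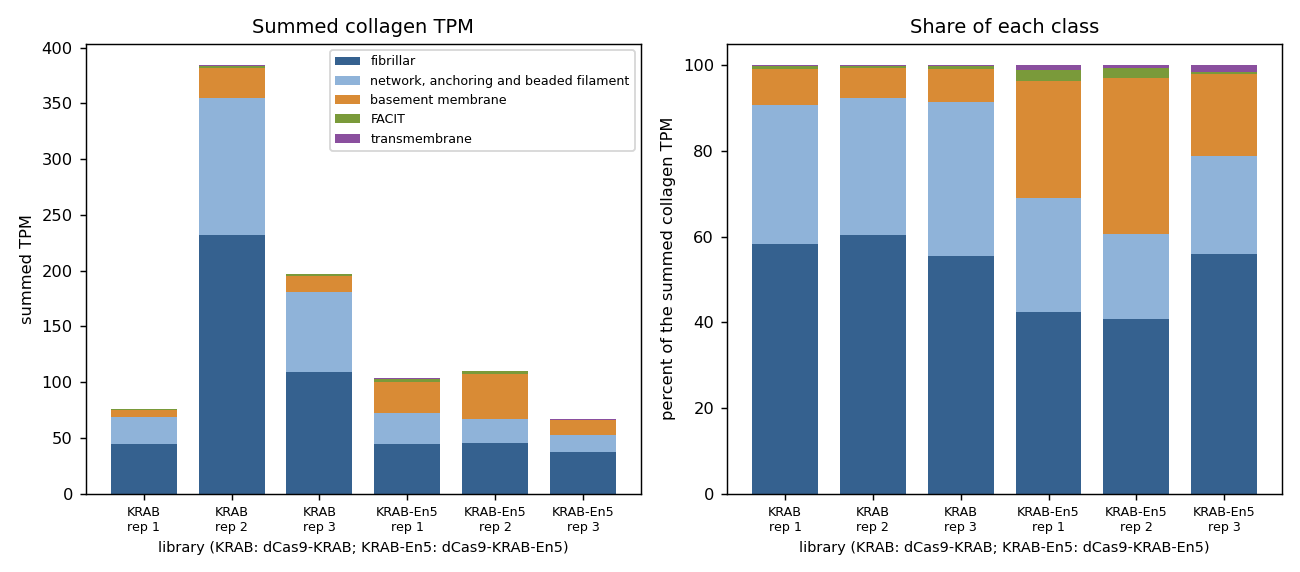
Summed collagen TPM per library (left) and the percent of that sum in each class (right), with 1 stacked bar for each library. The sum runs from 75.8 to 384 TPM among the dCas9-KRAB libraries, while the basement membrane share is 7.04% to 8.41% there and 19.0% to 36.5% in the dCas9-KRAB-En5 libraries.

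Ratios of chains within a library, in which a change shared by both chains cancels, were compared for 6 pairs of chains that assemble or act together. The ratio of *Col6a1* to *Col6a2* was 2.32, 2.42 and 2.08 in dCas9-KRAB and 5.32, 5.51 and 4.54 in dCas9-KRAB-En5 libraries. The groups were far apart, with means of 2.27 ± 0.18 and 5.12 ± 0.52 (SD, n = 3). The ratio of *Col6a3* to *Col6a1* was 0.0454 ± 0.014 against 0.123 ± 0.037, that of *Col3a1* to *Col1a1* was 0.908 ± 0.27 against 3.45 ± 1.7, and that of *Col5a1* to *Col5a2* was 4.58 ± 1.3 against 1.40 ± 0.70. In these 4 pairs the groups did not overlap. Each gave p = 0.1 in a two-sided exact permutation test, the smallest that 3 against 3 can give, or 0.15 after Benjamini-Hochberg adjustment over the 6 ratios.

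In the other 2 pairs the groups overlapped. *Col1a1* to *Col1a2* was 1.36 ± 0.28 against 0.894 ± 0.31 (exact permutation p = 0.2, adjusted 0.24), and *Col4a1* to *Col4a2* was 1.20 ± 0.18 against 1.12 ± 0.40 (exact permutation p = 0.8). This does not show that the ratios were equal. As a description of ratios chosen after the values were seen, *Col4a5* to *Col4a1* was 0.621, 0.618 and 0.451 against 22.9, 37.1 and 4.32, and *Col5a3* to *Col5a1* was 0.906, 0.903 and 1.31 against 3.99, 5.49 and 5.42. In both the groups did not overlap.

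**Figure D4:**
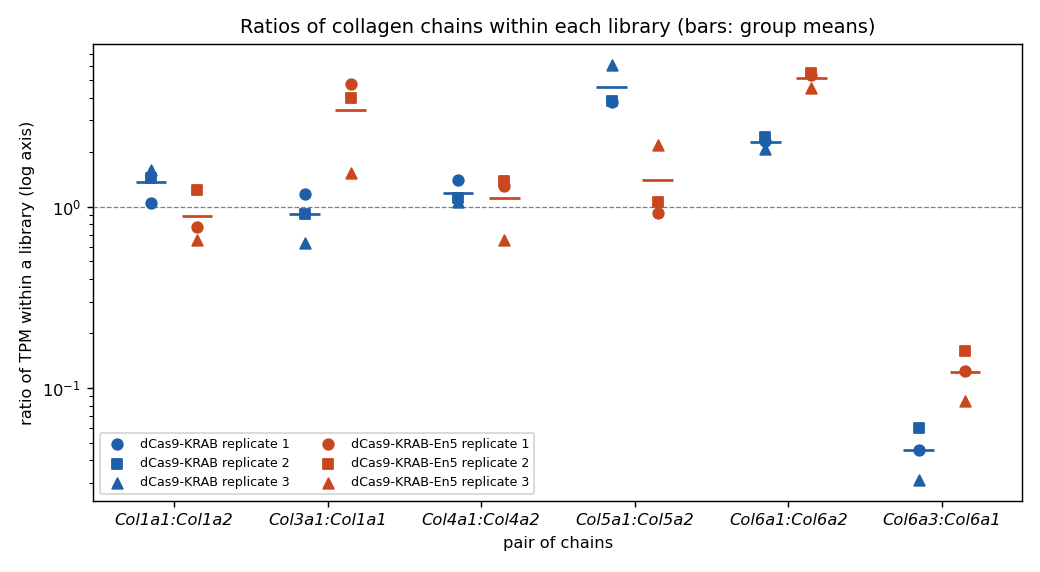
Ratio of the TPM of 2 collagen chains within each library, on a log axis, for the 6 pairs compared. Blue symbols are dCas9-KRAB and orange symbols dCas9-KRAB-En5 libraries, and bars are group means. The symbols of a group sit close together for *Col6a1* to *Col6a2* and the groups are apart, whereas they overlap for *Col1a1* to *Col1a2* and *Col4a1* to *Col4a2*.

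Genes whose products act on collagen were described by 6 lists, and their counts are read against the 4.67% of all genes called lower in edgeR and the 6.79% called lower with the block. Among 21 genes that fold and modify chains (19 tested), 2 fell, with a median log2 fold change of -0.26. At an unadjusted p under 0.05 in edgeR, 6 were lower and 2 higher. *P4hb*, the most abundant of the list, had 463, 553 and 538 TPM against 2085, 3351 and 418 TPM. Its log2 fold change of 1.48 did not pass (adjusted p = 0.0783 in edgeR), and it was called higher without En5 replicate 3. *Serpinh1*, the collagen chaperone HSP47, fell from 221, 392 and 328 TPM to 36.1, 20.1 and 31.6 TPM (-3.37 ± 0.60, adjusted p = 0.00375 in edgeR). *P3h4*, a partner of the lysyl hydroxylases, fell by 4.07 on the log2 scale (adjusted p = 0.00766). *Fkbp10*, a prolyl isomerase of the endoplasmic reticulum, did not pass (-2.65, adjusted p = 0.0205) but did with the block (0.00236), in DESeq2 and without En5 replicate 3. The groups did not overlap for *Serpinh1*, although the list's summed level, 998 to 1601 TPM in dCas9-KRAB and 744 to 4211 TPM in En5 libraries, did.

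Procollagen processing had the largest share of lower genes of the 6 lists, 4 of 5 tested among 10, with a median of -3.53 and all 5 lower with the block. The N-proteinases *Adamts2* and *Adamts14* fell, with log2 fold changes of -3.53 and -3.81 (adjusted p = 0.00401 and 0.00438 in edgeR). *Pcolce*, an enhancer of the C-proteinase, went from 43.1, 139 and 102 TPM to 7.27, 5.92 and 12.2 TPM (-3.28, adjusted p = 0.00944), and *Pcolce2*, its paralog, went from 3.24, 3.13 and 1.84 TPM to 0.0204, 0.0765 and 0 TPM (adjusted p = 0.000538). The groups did not overlap in either. *Bmp1*, the C-proteinase itself, did not pass (-2.48, adjusted p = 0.0187) but did with the block (0.0053), in DESeq2 and without En5 replicate 3.

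None of the 5 cross-linking genes was called in edgeR, where 3 were lower at an unadjusted p under 0.05, and 1 was called lower with the block. *Loxl1*, a lysyl oxidase, had 19.3, 60.2 and 41.2 TPM against 1.47, 1.00 and 4.19 TPM. Its groups did not overlap, and it missed the cutoff narrowly (-3.82, adjusted p = 0.0109, and 0.000364 with the block). DESeq2 and the fit without En5 replicate 3 also called it lower. *Loxl3* was at -1.63 (adjusted p = 0.055) and *Loxl2* at -1.52 (adjusted p = 0.115).

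Of 13 fibril-associated genes (9 tested, median -2.14), 3 fell, and with the block 4 were lower and 1 higher. *Ogn*, a small leucine-rich proteoglycan, went from 12.5, 3.32 and 3.11 TPM to 0, 0.0460 and 0 TPM (adjusted p = 0.000457 in edgeR). *Thbs2*, a matricellular protein, and *Sparc*, a collagen-binding glycoprotein, fell with log2 fold changes of -3.90 and -3.15 (adjusted p = 0.004 and 0.00496). *Sparc* had 166, 326 and 208 TPM against 29.3, 18.6 and 27.4 TPM. Of 11 receptor genes (9 tested, median -0.09), the collagen-activated kinases *Ddr1* and *Ddr2* fell, with log2 fold changes of -3.23 and -3.68 (adjusted p = 0.00371 and 0.00215), and *Lair1*, an inhibitory collagen receptor of leukocytes, was at 2.92 (adjusted p = 0.0664). Of 14 breakdown genes (10 tested, median -0.12), the inhibitor *Timp2* and the membrane-bound collagenase *Mmp14* fell, with log2 fold changes of -3.63 and -2.42 (adjusted p = 0.00333 and 0.00821). *Timp1* (-2.42, adjusted p = 0.0179) and *Mmp9*, a gelatinase (2.09, adjusted p = 0.0196), did not pass, but *Timp1* was called lower and *Mmp9* higher with the block (0.00231 and 0.00773), in DESeq2 and without En5 replicate 3.

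**Figure D5:**
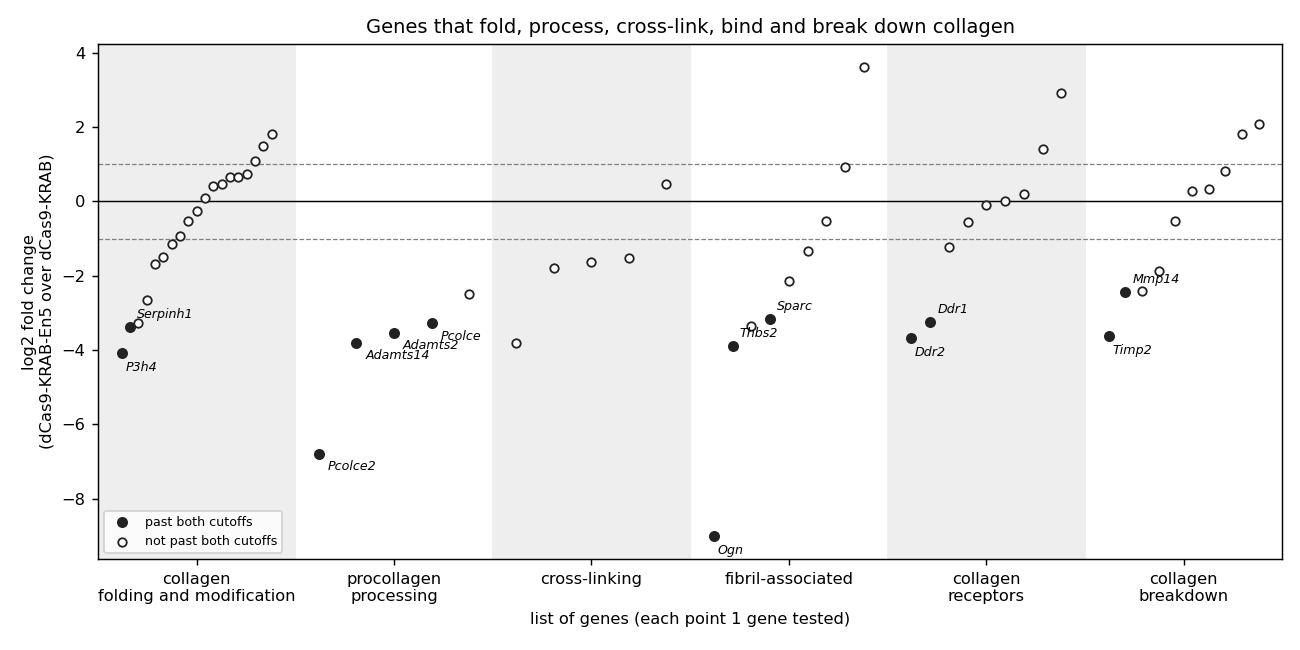
Log2 fold change of each tested gene in the 6 lists of genes that fold, process, cross-link, bind or break down collagen, with 1 point for each gene in order of its value within a list. Filled points passed both cutoffs and are named, and dashed lines mark a 2-fold change. All filled points lie below 0, and 4 of them are in procollagen processing.

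Markers of other collagen-making cells moved with the groups in part. Fibroblast and mesenchymal markers (12 genes, 9 tested) summed to 48.5 to 65.3 TPM in dCas9-KRAB and 12.1 to 25.2 TPM in dCas9-KRAB-En5 libraries, with 5 called lower (*Dpt*, *Twist2*, *Fbln1*, *Mfap5* and *Cd248*, against 4.67% of all genes) and *Thy1* and *Tcf21* at 0 in every library. The list was not uniform, since *Pi16* had means of 2.26 TPM in dCas9-KRAB and 3.39 TPM in dCas9-KRAB-En5 libraries, and *Pdgfra* had 0.147 to 0.466 TPM against 0.890, 0.930 and 0 TPM. *Scx*, the tendon regulator, accounted for the tendon list, which summed to 35.2 to 87.4 TPM against 0.329 to 0.441 TPM, while *Tnmd*, *Mkx* and *Thbs4* were at 0 throughout. The smooth muscle list summed to 543 to 1917 TPM against 6.38 to 22.7 TPM through *Acta2* and *Des*, which myogenic cells also express, and *Myh11* was at most 0.0310 TPM. Chondrocyte markers summed to at most 3.55 TPM with *Acan* and *Hapln1* at 0, and endothelial markers to at most 0.576 TPM. The part of these cell types in the collagen values was not tested.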

How the data were processed

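RNA-Seq was analysed in 6 libraries of C2C12 cells on day 5. The authors mapped reads with HISAT2 2.2.1 to mouse GRCm38 (mm10) and deposited, for each library, a table of whole-number gene counts from featureCounts beside TPM. The strand setting and the annotation release were not given in the sources used here. A gene not listed in a library was taken as 0, and symbols and positions came from GENCODE on GRCm38.

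Counts were tested with edgeR 4.0.16 (quasi-likelihood test, TMM, at least 10 counts by filterByExpr and 15 in total, all 6 libraries, condition only), with Benjamini-Hochberg adjustment over 14378 genes. Calls required an adjusted p no higher than 0.01 together with a log2 fold change of 1 or more in size, the cutoffs of the study's methods, and edgeR stood in for the study's DESeq2. Levels between genes were compared only in the deposited TPM, which is scaled for length. Chain ratios were compared by two-sided exact permutation tests. The script was tested on simulated counts in which 50 genes were changed for each size of change. The edgeR test called 6% of the genes changed by 2 on the log2 scale and 74% of those changed by 4. It called 0 unchanged genes. A gene that did not pass is therefore not shown to be unchanged.

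Deviations from the group means correlated between same-numbered libraries (0.26, 0.21 and 0.29, against a mean of -0.14 between different numbers). Deviations cancel out within a group, so positive values for the same numbers go with negative ones elsewhere. The contrast is therefore no separate test of a pairing. The numbers were taken as a block, and blocked values were given where they changed a call. This pairing was read from the same counts, since the labels name no shared day or batch. Alternatives were other normalizations and filters, the block, DESeq2 1.42.0, limma-trend (limma 3.58.1) on log2 TPM with pseudocounts of 1 and 0.1, an adjusted p of at most 0.05, and leaving out each library.

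The members and lists were chosen with earlier results of these data known. Values in every library were given for called members, for the 3 members of each class with the highest mean TPM and for the chains of the ratios. Of each accompanying list the 3 tested genes of smallest adjusted p were named. *Pcolce*, *Bmp1*, *Mmp9*, *P4hb*, *Tnxb* and some collagen genes were named outside these rules, after their values were seen.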

Additional observations from a re-analysis of the deposited data

How the results depend on the processing

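The number of collagen genes called lower was 2. It was 1 with RLE normalization and 1 with library totals, 4 with the replicate block, and 7 with no low-count filter, with DESeq2 and with 0.05 as the adjusted p cutoff. limma-trend called 0 on both TPM scales, with 9 and 10 lower and 3 and 4 higher at an unadjusted p under 0.05. The number called higher was 0. It was 1 with the replicate block, and 2 with no low-count filter, with DESeq2 and with 0.05 as the cutoff. Leaving out 1 library gave 0 to 7 called lower and 0 to 2 called higher. The block changed no other call among the collagen genes. The cause of these differences was not tested.

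The sign of the log2 fold change held in every alternative for 19 of the 25 genes. Over the fits that left out 1 library it ran from -0.75 to 0.28 for *Col5a2*, -0.86 to 0.53 for *Col6a3* and -0.73 to 0.017 for *Col16a1*, each highest without dCas9-KRAB replicate 2, where the median over the members was 0.52. It ran from -0.18 (without dCas9-KRAB-En5 replicate 1) to 1.14 for *Col20a1*, and from -0.49 to 0.53 for *Col5a3* and -0.39 to 1.36 for *Col7a1*, both lowest without dCas9-KRAB-En5 replicate 3. With limma-trend on log2(TPM + 0.1) it became 0.073 for *Col6a3*, then the median member, and 0.012 for *Col16a1*. None of these 6 genes was called in edgeR. The adjusted p of *Col1a1* reached at most 0.029 and that of *Col6a2* at most 0.0505 in any alternative. In the library with the fewest counts, a level under 0.0942 CPM (3 counts) rested on fewer than 3 counts or could be missed.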
